A study of Antheraea pernyi with 6 samples.

Results

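Of the 46 genes named as odorant or olfactory receptors in the antennae of the Chinese oak silkmoth, Antheraea pernyi, 5 carried nearly all of their signal in libraries of a single sex label. They were picked as a list from the measured values themselves, for near absence in one label, so their difference between labels is described here without a test. Near absence is taken below as a mean under 1 FPKM in one label with at least 5 FPKM in the other, a limit set with these values known. FPKM is the number of sequenced fragments scaled to the length of the gene and to the library total, so levels can be compared between genes of a library. Between labels the median tested gene was 0.23 higher labelled male on the log2 scale, and results that change when libraries are rescaled are given both ways. Of the 5, 3 were high in the libraries labelled female, namely GWHGABGR000138 (olfactory receptor 1), GWHGABGR021060 and GWHGABGR011421. The others, GWHGABGR013978 and GWHGABGR010755, were high in those labelled male. This limit also takes in 3 further receptors, described after the 5, and the whole table holds 16458 genes. Receptors of lower level could be as one-sided in their reads, such as GWHGABGR021062 with 87 labelled female and 0 labelled male, or GWHGABGR011390 with 94 and 2.

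Total antennal RNA was extracted with Trizol and sequenced as stranded mRNA libraries, 3 labelled female and 3 labelled male. The labels give no age, mating state, number of animals or treatment for either group. Nothing in them says that the libraries of a label came from separate animals, so a p-value here reflects how far such libraries vary, perhaps for technical reasons only. Recovered totals lay between 9392242 and 11180175 reads per library, and Pearson correlations of log2(FPKM + 1) were 0.984 to 0.986 within a label and 0.95 to 0.952 between labels.

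In insects, an odorant receptor works as a ligand-binding subunit together with a shared coreceptor, Orco, in the membrane of olfactory sensory neurons, and most such neurons use 1 ligand-binding receptor. The receptor sets the odours to which the neuron responds, while Orco is needed to bring it to the cilium and to form the ion channel. Male moths carry pheromone receptors in neurons of long trichoid hairs on the antenna, bathed in fluid rich in pheromone-binding proteins. Other receptors of moth antennae respond to plant odours, and some of these are higher in females, which seek out sites for their eggs.

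The sex labels went against some of the genes that would check them. Pheromone-binding protein 1, which is male-biased in many moths, averaged 92516 FPKM (SD 2089, n = 3) in the libraries labelled female and 1273 FPKM (SD 90.6, n = 3) in those labelled male. Another 4 genes, named for females, namely female doublesex isoform F2, vitellogenin, a vitellogenin-2-like gene and a female-specific fat body protein, had 0 reads in the libraries labelled female and 49 in those labelled male. Their levels were low, with a mean of 1.72 FPKM labelled male for the doublesex isoform and 0.045 to 0.191 FPKM for the others. Opposite to pheromone-binding protein 1 lay pheromone-degrading enzyme 1 (GWHGABGR011087), at 0.487 FPKM labelled female and 9.44 FPKM labelled male. Exchanged labels and a true difference between the sexes cannot be told apart in these data. Directions below are therefore directions between labels, with log2 differences taken as male-labelled minus female-labelled.

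The receptor with the highest level was GWHGABGR000138, whose best protein match is olfactory receptor 1 of A. pernyi itself. Its level was 1105, 1141 and 1174 FPKM in replicates 1, 2 and 3 labelled female, and 0, 0.528 and 0 FPKM in those labelled male. All 3 libraries labelled female were high, close together, and far from the others, of which 2 held no read at all. The means were 1140.3 FPKM (SD 34.6, n = 3) and 0.176 FPKM (SD 0.305, n = 3), a difference of -9.95 on the log2(FPKM + 1) scale. Behind these values stood 14852 reads in the libraries labelled female and 2 in those labelled male. Corrected for library totals, the read ratio was 6390 to 1, with an exact 95% interval from 1769 to 52768 that covers counting error only. The length that came out of the read recovery, 394 bases, does not divide by 3, and the true reads and length may be the same whole multiple of the values given. This would leave the ratio as it is and narrow the interval.

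GWHGABGR021060 was next in level and matched a putative odorant receptor of the variegated cutworm moth, Peridroma saucia. It stood at 262.2, 266.5 and 258.9 FPKM in replicates 1, 2 and 3 labelled female and at 0.278, 0.815 and 0.414 FPKM in those labelled male. The high values differed little from each other, and every library labelled male still had a few reads. The means were 262.5 FPKM (SD 3.79, n = 3) and 0.502 FPKM (SD 0.279, n = 3), a log2 difference of -7.47. Read counts were 13308 and 22, a ratio of 520.5 to 1 (exact 95% interval 343.6 to 830.9). Its coding length of 1533 bases, or 511 codons, was the longest of the 5.

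GWHGABGR011421 matched part of olfactory receptor 20 of the cotton bollworm, Helicoverpa armigera, and had a lower level on the same side. Its values were 37.4, 40.3 and 35.8 FPKM in replicates 1, 2 and 3 labelled female and 0, 0.358 and 0.727 FPKM in those labelled male. The lowest library labelled female was still far above the highest labelled male. The means were 37.8 FPKM (SD 2.27, n = 3) and 0.362 FPKM (SD 0.364, n = 3), a log2 difference of -4.87. With 364 reads against 3, the ratio was 104.4 to 1, and its exact 95% interval was wide, from 35.4 to 508.6. The recovered length is short, at 291 bases, but it is the shortest that fits the values, and the true length may be a whole multiple.

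On the other side, GWHGABGR013978 matched part of an odorant receptor of H. armigera and was listed at 0 FPKM in all 3 libraries labelled female. In replicates 1, 2 and 3 labelled male it reached 25.0, 17.6 and 16.4 FPKM, a mean of 19.7 FPKM (SD 4.66, n = 3) and a log2 difference of 4.35. Relative to their mean, the high libraries were less alike here than for any other of the 5 receptors (coefficient of variation 23.7%). They held only 50, 36 and 33 recovered reads. The 119 reads labelled male against none put it at least 46.1-fold higher, with 3 reads taken as the upper limit for a group without any. The recovered length was only 213 bases, or 71 codons, and here too the true length may be a whole multiple.

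GWHGABGR010755 matched an odorant receptor of the lasiocampid moth Dendrolimus kikuchii and had the weakest near absence of the 5. It stood at 0, 1.20 and 0.880 FPKM in replicates 1, 2 and 3 labelled female and at 21.3, 17.9 and 20.5 FPKM in those labelled male. One library labelled female held no read, while the others held 14 and 10. The means were 0.692 FPKM (SD 0.62, n = 3) and 19.9 FPKM (SD 1.76, n = 3), a log2 difference of 3.70. Reads numbered 24 and 592, a ratio of 28.7 to 1 (exact 95% interval 19.1 to 45.1), over a recovered length of 1047 bases. Thus the libraries of the labels did not overlap for any of the 5 receptors, by the rule that chose them, and 50.1% of the 11590 genes with a mean of at least 0.5 FPKM did not overlap either. In bulk antennae, fewer neurons using a receptor and less receptor RNA per neuron cannot be told apart.

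**Figure D1:**
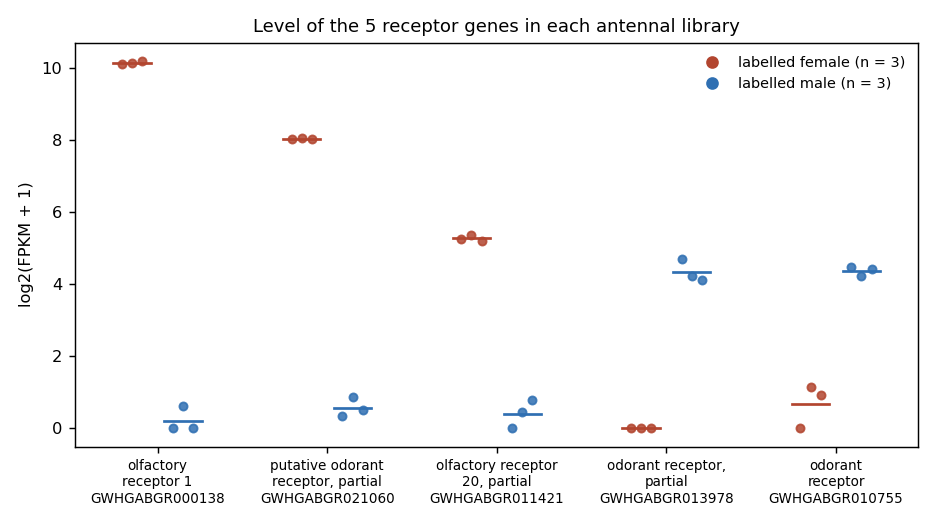
Level of the 5 receptor genes on the log2(FPKM + 1) scale, with 1 point per library, horizontal bars for the mean of the plotted values of a label, red for libraries labelled female and blue for those labelled male (n = 3 each). GWHGABGR000138, GWHGABGR021060 and GWHGABGR011421 are high in red and near 0 in blue, and GWHGABGR013978 and GWHGABGR010755 the other way round.

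The 3 receptors on the female-labelled side made up most of the receptor signal there. Together they held 89.9% of the summed FPKM of all 46 receptors (SD 0.506, n = 3), with 89.4% in the lowest library and 90.4% in the highest. GWHGABGR000138 alone held 71.2% (SD 0.996, n = 3), GWHGABGR021060 held 16.4% (SD 0.402) and GWHGABGR011421 held 2.36% (SD 0.151). In the libraries labelled male these same 3 genes held 0.464% (SD 0.32, n = 3).

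The receptors on the male-labelled side took a smaller place. GWHGABGR010755 held 8.69% of the summed receptor FPKM of the libraries labelled male (SD 0.927, n = 3) and GWHGABGR013978 held 8.51% (SD 1.43). Their joint share was 17.2% (SD 1.68), from 15.5% to 18.8%, against 0.0428% in the libraries labelled female. The other 41 receptors held the rest, 82.3% (SD 1.37) in the libraries labelled male and 10.03% (SD 0.536) in those labelled female. Summed over all receptors, the level was 1602 FPKM (SD 27.6) labelled female and 229.4 FPKM (SD 16.7) labelled male.

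**Figure D2:**
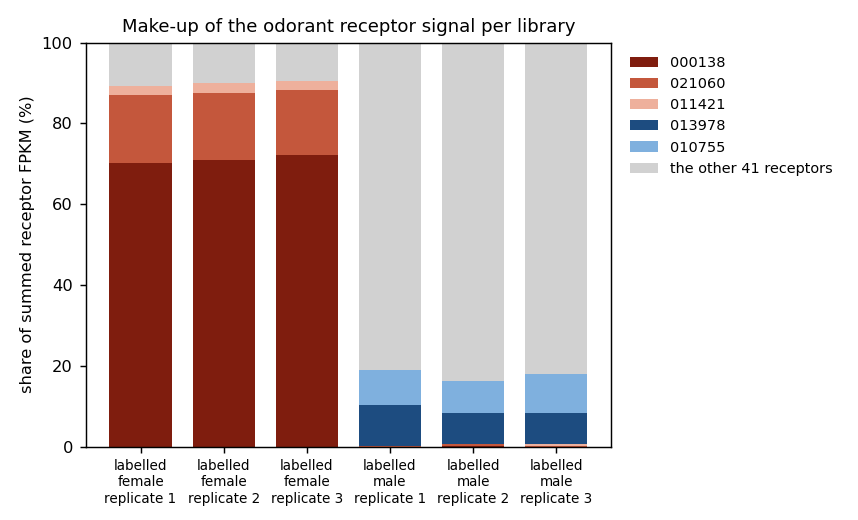
Share of the summed FPKM of all 46 odorant receptors, in percent, held by each of the 5 receptors and by the other 41 in each library, with the 5 named by the last digits of their identifiers. The 3 red shades fill 89.4% to 90.4% of the bars labelled female, and the blue shades 15.5% to 18.8% of those labelled male.

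Order among the receptors was stable on the female-labelled side. GWHGABGR000138 ranked 1, GWHGABGR021060 ranked 2 and GWHGABGR011421 ranked 3 among the 46 receptors in every library labelled female. The ratio of GWHGABGR000138 to GWHGABGR021060 lay between 4.21 and 4.54, and that of GWHGABGR021060 to GWHGABGR011421 between 6.62 and 7.24, so neighbours in this order differed beyond their spread. Among all genes of the table, GWHGABGR000138 ranked 214, 208 and 200 in replicates 1, 2 and 3, and GWHGABGR021060 ranked 570, 566 and 574. GWHGABGR011421 ranked between 2223 and 2408.

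On the male-labelled side no such order was seen. GWHGABGR013978 ranked 1, 4 and 2 among the receptors in replicates 1, 2 and 3, and GWHGABGR010755 ranked 3, 3 and 1. The ratio of GWHGABGR010755 to GWHGABGR013978 ran from 0.85 to 1.25, so these 2 did not differ beyond their spread. Their nearest companions at the top were GWHGABGR008833, named olfactory receptor 50, at 18.8 FPKM (SD 3.8, n = 3), and GWHGABGR008585, named odorant receptor 17, at 16.7 FPKM (SD 2.82, n = 3). Among all genes of the libraries labelled male, GWHGABGR013978 ranked between 3362 and 4244 and GWHGABGR010755 between 3705 and 4009.

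Spread among libraries of the label where a receptor was high could be set against read counting. For GWHGABGR021060 the chi-square per degree of freedom was 0.923 and the coefficient of variation 1.44%, and for GWHGABGR011421 these were 0.438 and 6.0%. With reads as recovered, both chi-squares were below 1, the value that read sampling alone gives on average. The chi-square of any gene would be larger if its true reads are a multiple of those recovered. GWHGABGR000138 had a chi-square of 4.54 per degree of freedom with a coefficient of variation of 3.04%, and its recovered length leaves such a multiple possible. On the male-labelled side the values were 2.22 and 23.7% for GWHGABGR013978 and 1.56 and 8.87% for GWHGABGR010755. Median chi-squares over all genes with at least 90 reads in the label were 2.14 labelled female and 2.09 labelled male. Relative to counting, and with reads as recovered, GWHGABGR000138 thus lay above the median and the others near or below it. This measure tends to grow with read number, so a multiple of the recovered reads could change that order. The coefficient of variation of GWHGABGR000138 was below the medians of 9.43% for all genes and 18.2% for the other receptors labelled female. That of GWHGABGR013978 was above the matching medians labelled male, 9.35% and 18.1%.

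Orco, the coreceptor of all these receptors, was itself higher in the libraries labelled female. GWHGABGR013501, whose best match is putative chemosensory receptor 2 of A. pernyi, an older name for Orco, stood at 464.9 FPKM (SD 5.90, n = 3) labelled female and 175.8 FPKM (SD 1.58, n = 3) labelled male. Its log2 difference of -1.40 (SE 0.04) had an adjusted p of 1.43e-08 in limma. Per unit of Orco FPKM, GWHGABGR000138 stood at 2.45 (SD 0.045) and GWHGABGR021060 at 0.565 (SD 0.0117) in the libraries labelled female. In the libraries labelled male, GWHGABGR010755 stood at 0.113 (SD 0.00926) and GWHGABGR013978 at 0.112 (SD 0.0264) per unit of Orco. GWHGABGR000138 was thus the one receptor of the 46 whose mean level was above that of Orco in either label.

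Taking Orco as the scale, the receptors outside the 5 had an opposite balance. Their summed FPKM per unit of Orco was 0.364, 0.343 and 0.33 in replicates 1, 2 and 3 labelled female and 1.13, 1.11 and 0.985 in those labelled male. The libraries did not overlap, with means of 0.346 (SD 0.0169) and 1.07 (SD 0.0785). In a 2-sided exact permutation test p was 0.1, the smallest that 3 libraries against 3 allow, or 0.15 after Benjamini-Hochberg adjustment over 3 such tests. Without Orco as the scale their summed level was 160.6 FPKM (SD 5.81) labelled female and 188.8 FPKM (SD 12.8) labelled male (exact permutation p = 0.1, n = 3 each). After rescaling libraries by the median of gene ratios, the same sums came to 173.8 (SD 5.56) and 171.0 (SD 11.8), the other way round (exact permutation p = 0.8). The 5 were left out for their values on this same contrast, and Orco was itself higher labelled female, so both enter the balance per unit of Orco. With the 5 kept in, the sum of all receptors per unit of Orco was 3.45 (SD 0.0159) labelled female and 1.31 (SD 0.0993) labelled male.

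Among the other receptors, levels were modest on both sides. Their median over 41 genes was 2.73 FPKM in the libraries labelled female and 4.15 FPKM in those labelled male. The highest outside the 5 was GWHGABGR011412 at 31.8 FPKM in the libraries labelled female, just under GWHGABGR011421. Of 37 that passed the filter of a mean of at least 0.5 FPKM, 22 were called by limma at an adjusted p of 0.05, which is 59.5%, against 36.9% of all tested genes. Of these, 14 were higher labelled male, where 27.8% of all tested genes were called, and 8 higher labelled female, where 9.03% were. The 8 include GWHGABGR011390, GWHGABGR011407, GWHGABGR011410, GWHGABGR011412 and GWHGABGR011422, which lie in a single range of identifiers described below. The median log2 difference of the 37 was 0.50, and that of all tested genes 0.23. With the libraries rescaled by the median of ratios, the median of all genes moved to 0.02 and 17 receptors were called, 9 higher labelled male and 8 higher labelled female, each also called before and in the same direction. The background was then 31.8%, of which 14.4% lay higher labelled male and 17.5% higher labelled female.

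**Figure D3:**
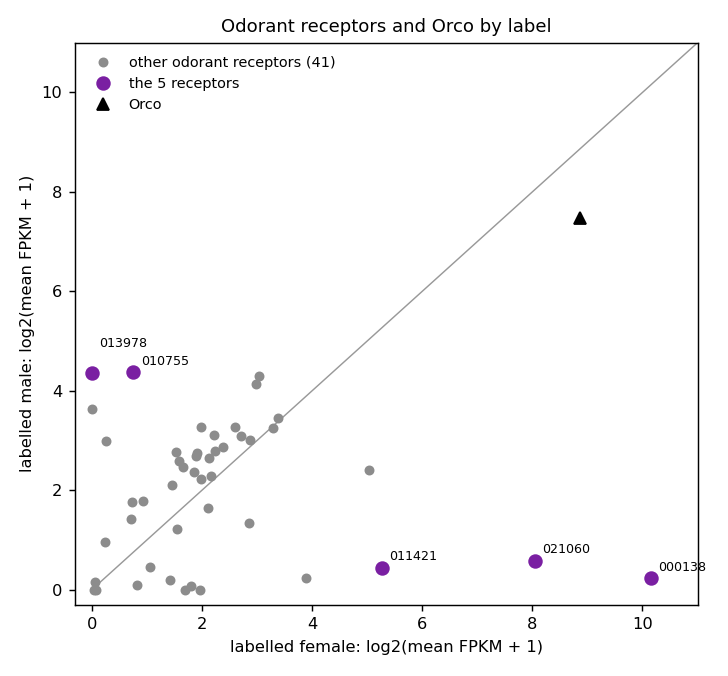
Mean level of the 46 odorant receptors and of Orco in the libraries labelled female (x axis) and male (y axis), both as log2(mean FPKM + 1), with the line of equal levels and the last digits of the identifiers of the 5 receptors. The 5 lie along the axes, Orco lies below the line at 464.9 and 175.8 FPKM, and the other 41 gather at low levels on both sides of it.

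Near absence in a single label was rare in the table as a whole. In all, 26 genes (0.158% of 16458) had a mean below 1 FPKM in the libraries labelled male and at least 5 FPKM in those labelled female, among them 4 receptors. Of the other direction there were 43 genes (0.261%), again with 4 receptors. The 5 receptors are by rule among these, so nothing is read from the counts. By level, GWHGABGR000138 and GWHGABGR021060 ranked 1 and 2 among the 26, ahead of the cuticle protein 7-like gene GWHGABGR004573 at 234.2 FPKM (SD 8.51) and 0.358 FPKM (SD 0.621). GWHGABGR010755 and GWHGABGR013978 followed a pancreatic triacylglycerol lipase-like gene, GWHGABGR012968, at 0.456 and 35.2 FPKM, and the organic cation transporter GWHGABGR012519 at 0.784 and 28.2 FPKM.

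The 3 receptors that meet the same rule without being among the 5 had lower levels. GWHGABGR011410, named odorant receptor 13a-like, read 14.7, 12.4 and 14.3 FPKM in replicates 1, 2 and 3 labelled female and 0.123, 0.422 and 0 FPKM in those labelled male. GWHGABGR021059, named odorant receptor 23a-like, was listed at 0 in every library labelled female and read 11.6, 11.3 and 11.5 FPKM labelled male. GWHGABGR005934 read 0, 0.573 and 0 FPKM labelled female and 3.41, 10.7 and 6.78 FPKM labelled male, on 1 and 31 reads. None of the 3 overlapped between labels, which 50.1% of tested genes did not either. GWHGABGR021059 also rested on few reads, recovered as 36 in all, a number fixed only up to a whole factor, and GWHGABGR005934 varied widely.

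The values around the limits were as follows. Just inside the limit of 1 FPKM lay GWHGABGR010755 with 0.692 FPKM in its low label. Another 13 receptors had a mean below 1 FPKM in one label but under 5 FPKM in the other, the highest of them GWHGABGR021062 at 2.93 FPKM. Highest among the receptors outside the 5, but with its low label above 1 FPKM, was GWHGABGR011412. It stood at 31.8 FPKM (SD 0.797) labelled female but 4.30 FPKM (SD 0.594) labelled male, a log2 difference of -2.64.

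**Figure D4:**
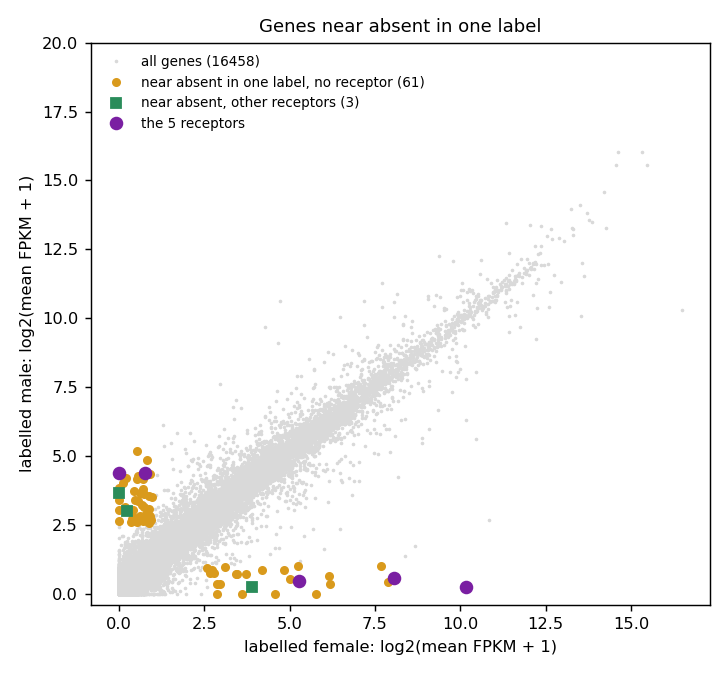
Mean level of all 16458 genes in the libraries labelled female (x axis) and male (y axis), both as log2(mean FPKM + 1), with the genes near absent in one label in colour. Among the coloured genes GWHGABGR000138 and GWHGABGR021060 lie farthest out along the female-labelled axis, and no coloured receptor lies as far out along the male-labelled one.

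Receptor genes with nearby identifiers were compared, since identifiers often follow gene order in an annotation. The files give no genome positions, so being neighbours in number is all that can be stated. GWHGABGR021060 lies between receptors that moved in opposite directions. GWHGABGR021059, 1 number before it, was high labelled male as given above. GWHGABGR021062, 2 numbers after it and with the same name for its best match, read 3.44, 2.59 and 2.77 FPKM in replicates 1, 2 and 3 labelled female and 0 in every library labelled male. Its log2 difference was -1.97, and its 87 reads against none gave a level at least 24.95-fold higher. The name of the best match of GWHGABGR021060 was shared by 4 receptors and that of GWHGABGR011421 by 2, but the names are general and do not show that the matched proteins were the same.

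GWHGABGR011421 is among 10 receptor models within the 25 identifiers listed from GWHGABGR011390 to GWHGABGR011422, named for receptors 13a, 20 and 30a. Other genes lie between them in number. Those just before GWHGABGR011421, namely GWHGABGR011418, GWHGABGR011419 and GWHGABGR011420, were not called (limma adjusted p = 0.0893, 0.296 and 0.0902). Their log2 differences were 0.67, 0.33 and 0.23. This range was marked out after its values were seen. Having been chosen on their values, the 10 are described one by one, without a test, and not counted here. Next to GWHGABGR011410 and GWHGABGR011412, given above, were models of lower level. GWHGABGR011422, 1 number after GWHGABGR011421, stood at 2.22 FPKM (SD 0.375) labelled female and was listed at 0 labelled male, a log2 difference of -1.68. GWHGABGR011390 stood at 2.48 FPKM (SD 0.394) and 0.0604 FPKM (SD 0.105), a log2 difference of -1.71. GWHGABGR011407 stood at 1.68 FPKM (SD 0.983) and 0.15 FPKM (SD 0.137), with replicate 3 labelled female at only 0.546 FPKM. GWHGABGR011398 and GWHGABGR011415 were present in both labels, at 3.30 and 2.12 FPKM and at 1.93 and 1.33 FPKM. GWHGABGR011405, on 55 and 4 reads, and GWHGABGR011408, on 1 read in a single library, lay below the filter of a mean of 0.5 FPKM.

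**Figure D5:**
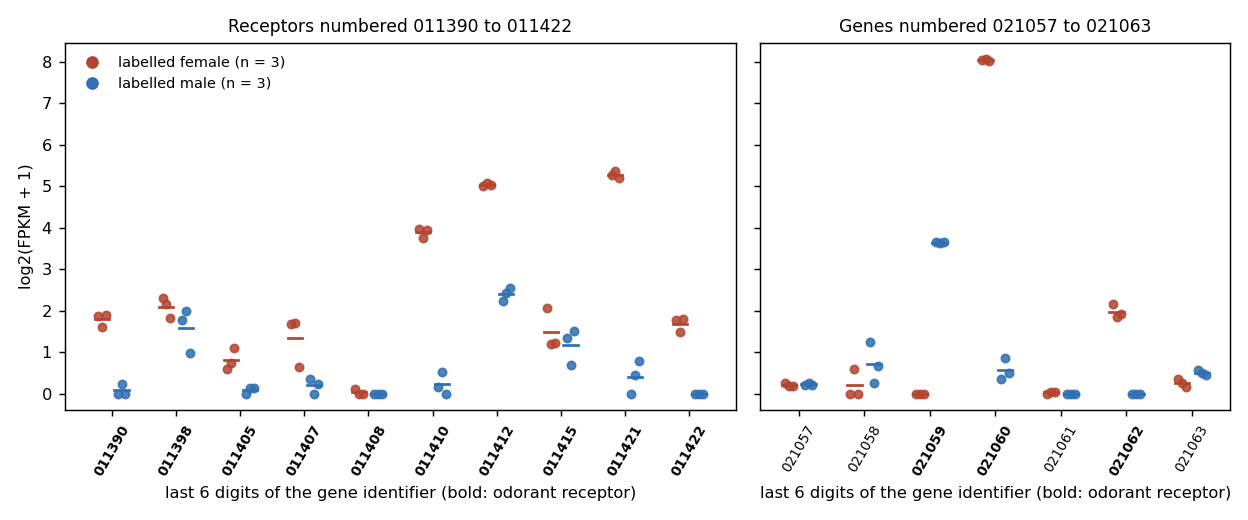
Level of the 10 receptors numbered from GWHGABGR011390 to GWHGABGR011422, without the other genes of that range (left), and of the genes numbered around GWHGABGR021060 (right), as log2(FPKM + 1). Each point is 1 library, and bars give the mean of the plotted values of a label (n = 3 each). On the left GWHGABGR011421, GWHGABGR011412 and GWHGABGR011410 have the highest red values, while on the right GWHGABGR021059 and GWHGABGR021060 stand high in opposite labels.

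Around the other 3 receptors no gene within 3 numbers was a receptor. Beside GWHGABGR000138 lie GWHGABGR000139 and GWHGABGR000141, both named peptide transporter family 1, which moved the opposite way. They stood at 35.8 FPKM (SD 4.04) and 104.8 FPKM (SD 3.26), and at 89.6 FPKM (SD 4.62) and 236.7 FPKM (SD 11.8), with log2 differences of 1.53 and 1.39 (limma adjusted p = 2.89e-06 and 3.64e-07). GWHGABGR000136 and GWHGABGR000140 were also higher labelled male, by 0.93 and 0.68 (limma adjusted p = 0.0279 and 0.025). Both of these calls were lost after rescaling by the median of ratios (limma adjusted p = 0.077 and 0.0534), and GWHGABGR000135 and GWHGABGR000137 were not called. Near GWHGABGR013978, a mitochondrial thioredoxin gene, GWHGABGR013975, was higher labelled male at 3.41 FPKM and 13.4 FPKM (log2 difference 1.65, limma adjusted p = 0.00167). Closer in number, GWHGABGR013980, a delilah-like gene, was higher labelled female at 13.2 FPKM and 8.73 FPKM (log2 difference -0.56, limma adjusted p = 0.0283). This call was lost when any of 4 single libraries was left out (replicates 1 and 3 labelled female, 1 and 2 labelled male), with adjusted p of 0.0755 to 0.0876, and GWHGABGR013979 and GWHGABGR013976 were not called. Near GWHGABGR010755, GWHGABGR010754 and GWHGABGR010753 were higher labelled male by 1.12 and 0.90 on the log2 scale (limma adjusted p = 0.00429 and 0.00389), while GWHGABGR010756 and GWHGABGR010757 were not called. The log2 differences of the neighbours named here were all smaller in size than those of the receptors beside them. Those receptors were chosen for a large difference, so nothing is read from this.

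The genes most like each receptor were sought over all others, by the root mean square distance between log2(FPKM + 1) profiles over the 6 libraries. Nearest to GWHGABGR021060 were the cuticle protein 7-like genes GWHGABGR004573 and GWHGABGR004574, at distances of 0.459 and 0.487. GWHGABGR000138 had no close companion, its nearest being GWHGABGR004575 and GWHGABGR004572 at 1.502 and 1.56, also cuticle protein 7-like, with means of 405.3 and 333.2 FPKM labelled female and 2.35 and 1.58 FPKM labelled male. For GWHGABGR011421 they were the pupal cuticle protein 36-like gene GWHGABGR012307 (0.446) and the hypothetical gene GWHGABGR000271 (0.512). For GWHGABGR013978 they were a cAMP-specific phosphodiesterase gene, GWHGABGR008212 (0.399), with 0.149 and 17.3 FPKM, and the hypothetical gene GWHGABGR001842 (0.405). For GWHGABGR010755 they were GWHGABGR005399 (0.342), an uncharacterized gene, and the organic cation transporter GWHGABGR012519 (0.463). None of these nearest genes is itself an odorant receptor.

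Proteins that work beside odorant receptors in the sensillum moved in both directions. Of 15 such genes tested, 12 were called by limma (36.9% of all tested genes), 8 higher labelled male (27.8%) and 4 higher labelled female (9.03%). After rescaling by the median of ratios 10 were called (31.8% of all tested genes), 5 higher labelled male (14.4%) and 5 higher labelled female (17.5%). Orco and pheromone-binding proteins 1 and 3 of A. pernyi, members of a family that carries pheromone through the sensillum lymph, lay on the side of GWHGABGR000138. Pheromone-binding protein 1 (GWHGABGR012196), with the means given above, had a log2 difference of -6.18, and pheromone-binding protein 3 (GWHGABGR012195) stood at 11729 FPKM (SD 248) and 1082 FPKM (SD 28.0), a log2 difference of -3.44 (limma adjusted p = 3.33e-11 for both). GWHGABGR012197, matching a pheromone-binding protein 1 of Conopomorpha sinensis, lay on the other side at 361.1 FPKM (SD 11.3) and 473.3 FPKM (SD 30.3), a log2 difference of 0.39 (limma adjusted p = 0.000548, or 0.0648 after rescaling by the median of ratios). General odorant-binding proteins 1 and 2, often found with plant odour neurons, were higher labelled male with log2 differences of 0.99 (GWHGABGR012186, limma adjusted p = 1.08e-08) and 0.60 (GWHGABGR012194, limma adjusted p = 2.72e-06). Sensory neuron membrane protein 2 (GWHGABGR005182), found in support cells of moth sensilla, was higher labelled female by a small margin, 3042 FPKM (SD 5.49) and 2427 FPKM (SD 41.4). A second gene of that name, GWHGABGR000255, was low in both labels, at 0.654 and 0.647 FPKM, and not called (limma adjusted p = 0.969). No gene matched sensory neuron membrane protein 1 by name.

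Markers of other cells that an antenna holds were also compared. Of 8 hemocyte genes, 5 were tested and 4 were higher labelled male (27.8% of all tested genes), with summed levels of 1306 to 1387 FPKM labelled female and 2166 to 2295 FPKM labelled male, and 3 of the 8 below 1 FPKM in both labels. The hemolin gene GWHGABGR020071 made up most of these sums, and without it they were 41.7 to 47.7 and 167.6 to 191.2 FPKM. Of 9 fat body genes, 7 were tested, 3 higher labelled male (27.8% of all tested genes) and 1 higher labelled female (9.03%). Their sums were 585.8 to 616.5 FPKM labelled female and 503.6 to 525.2 FPKM labelled male. Those sums rested on apolipophorin-III (GWHGABGR013340), and without it the order turned, with 59.7 to 65.7 FPKM labelled female and 96.5 to 106.7 FPKM labelled male. Muscle genes gave overlapping sums, 60.1 to 74.9 and 67.5 to 81.5 FPKM over 13 genes. Of 9 tested, 2 were higher labelled male (27.8% of all tested genes) and 1 higher labelled female (9.03%). These marker counts were taken before rescaling by the median of ratios, after which the shares of all tested genes were 14.4% and 17.5%. Vitellogenin (GWHGABGR020830) was listed at 0 in every library labelled female and averaged 0.191 FPKM labelled male, and a prophenoloxidase (GWHGABGR013353) was at 0 in every library but 1, where it had 1 read. The part of these cells in the receptor values was not tested.

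The 5 receptors were also poorly annotated genes. None had a gene symbol, a gene ontology term or a pathway in the deposited table, while 61.0% of the other 41 receptors and 39.9% of all genes had no symbol. Lack of a pathway was common, in 40 of the other 41 receptors and 11955 of the 16458 genes. The best match of 3 of the 5 was to a protein marked as partial, against 9 of the other 41 receptors. Only GWHGABGR000138 had a best match from A. pernyi, and none of the other 41 did. Median model length was 394 bases for the 5, 765 bases for the other receptors and 894.5 bases for all genes, as recovered from the values.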

How the data were processed

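FPKM values of every gene in 6 libraries, beside a best protein match and annotation, make up the table the authors deposited. Per the submitters' processing notes, Trimmomatic, HISAT2, HTSeq and R 3.2.0 were used, with roles not stated, and the genome build is not given in the sources used here. Genes are named by the table's identifiers and best matches, and no sequence or position is printed. Whole reads could be recovered from the FPKM values for 16458 of 16458 genes (100%) within 0.01 read, at the shortest length of at least 90 bases. Of 11340 genes with over 30 reads, 87.9% had lengths that are multiples of 3. The reads of a gene are fixed only up to a whole factor, which its length shares.

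Genes with a mean of at least 0.5 FPKM (11590) were compared between labels, as log2(FPKM + 1), by limma 3.58.1 under R 4.3.3. The fit had label as its only term and let the variance follow the mean level, and tests were 2-sided with Benjamini-Hochberg adjustment at 0.05 over all tested genes. This scale understates changes of low genes. The limma step was tested on simulated data. Read ratios are corrected for library totals and carry exact 95% Clopper-Pearson intervals or a floor of 3 reads over the group, which cover counting error only.

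Named genes were the 5 receptors, receptors meeting the same rule, those with the largest differences and highest means, the partner genes, the nearest profiles, the highest genes near absent in each label and genes within 3 identifier numbers. The members and lists were chosen with earlier results of these data known. Alternatives were other scalings, pseudocounts, filters, no trend, the replicate number as a block, and leaving out each library.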

Additional observations from a re-analysis of the deposited data

How the results depend on the processing

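Read recovery fixes reads only up to a common factor per gene, and low-label values of the 5 receptors rest on 0 to 24 reads. Rescaling by the median of ratios moved the high-label means to 1234 FPKM for GWHGABGR000138, 284.1 for GWHGABGR021060, 40.9 for GWHGABGR011421 and 18.0 for GWHGABGR010755. A pseudocount of 0.1 moved the log2 differences of GWHGABGR000138, GWHGABGR021060, GWHGABGR011421, GWHGABGR013978 and GWHGABGR010755 to -12.59, -8.87, -6.82, 7.60 and 5.31. Genes near absent labelled male numbered 26, or 12 with a limit of 0.5 FPKM, under which GWHGABGR021060 drops out, and 17 with at least 10 FPKM in the high label. Those near absent labelled female numbered 43, or 22 without GWHGABGR010755 and 18. Leaving out single libraries gave 25 to 27 and 39 to 48, and GWHGABGR010755 left the set without replicate 1 labelled female.

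Of the other receptors limma called 22, 14 with a mean of at least 2 FPKM (27 tested), 15 after quantile normalization (7 higher labelled male and 8 higher labelled female, against 14 and 8), and 17 to 19 when single libraries were left out. Over all genes 3227 were higher labelled male and 1047 higher labelled female, against 1664 and 2027 after the median-of-ratios rescaling. That rescaling turned GWHGABGR017175, a general odorant-binding protein 56a gene, from a log2 difference of 0.00 to -0.26 (limma adjusted p = 0.000979). The replicate numbers did not pair the libraries (correlations of deviations 0.00513, 0.00589 and -0.00375), and with the replicate block 21 receptors, 12 partner genes and 3845 genes were called.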

Other observations

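Single genes near absent in one label, chosen after their values were seen, include the cuticle protein 8-like gene GWHGABGR004571, at 71.4 FPKM labelled female and 0.287 FPKM labelled male. A neuropeptide F receptor-like gene, GWHGABGR018783, a receptor for a feeding-related peptide in insects, stood at 69.6 FPKM and 0.548 FPKM. In the other direction, the alpha-tocopherol transfer protein-like gene GWHGABGR012763 stood at 0.879 FPKM labelled female and 19.2 FPKM labelled male.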
